A study of Mus musculus with 6 samples.

Results

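The genes described here are 10 targets of the hypoxia-inducible factors (HIFs) that lie outside glycolysis: Vegfa, Adm, Edn1, Ndrg1, Bnip3, Ankrd37, Pdk1, Ddit4, P4ha1 and Kdm3a. They were taken by gene symbol from count tables of 24422 genes, and all 10 were found and passed the filter on low counts. The tables hold RNA-seq read counts of whole kidneys from C57BL/6 mice at postnatal day 60, whose iron sufficient diet held 220 ppm iron in both groups, with 3 kidneys labelled wild type (controls) and 3 labelled Tfr1f/f;KspCre (knockouts). In the knockouts, floxed alleles of Tfr1 (Tfrc), the receptor that takes up transferrin-bound iron, are deleted by Cre recombinase under the Ksp-cadherin promoter, which is active in tubule epithelium, mainly of the distal nephron. The RNA came from the whole organ, so that cells without Cre contributed to every value, and fewer cells of a type cannot be told apart from less RNA per cell. The labels give the controls no floxed allele and no Cre.

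HIFs are transcription factors made of an oxygen-regulated alpha subunit and a stable beta subunit. In the presence of oxygen, prolyl hydroxylases that carry iron at their active site mark the alpha subunit, and the VHL ubiquitin ligase then sends it to degradation. Without oxygen or iron the alpha subunit persists, enters the nucleus and binds short hypoxia response elements with the core letters ACGTG or GCGTG. The targets outside glycolysis include secreted vascular signals, regulators of mitochondria and of growth signalling, and enzymes that hydroxylate collagen or demethylate histones. Many of them also respond to signals other than HIF.

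To show what sequence these targets share at their starts, the core letters were searched on both strands in the RefSeq promoter windows of build GRCm38.p6, which run from 250 bases before to 50 bases after a transcript's start. Windows were found for 9 of the 10 targets, and Ndrg1 had none. Each of the 9 genes had at least 1 window with ACGTG or GCGTG, against 46.7% of 27025 genes in the RefSeq table. Of their 13 windows, 9 (69.2%) held these letters, against 43.8% of all 32851 windows, while the median GC content was 62% in the targets' windows and 52.7% in all. The part of GC content was not tested, and a match describes letters and not a bound site. One stretch is shown for each of 6 targets that ended at different places in the comparison below, written 5′ to 3′ on the gene's strand with every match of either core, on either strand, in capitals. The letters CACGTG hold ACGTG on both strands.
Edn1 (chr13:42301485-42301513, plus strand): tatctctggctgCACGTtgcctgtgggtg
Ddit4 (chr10:59951941-59951969, minus strand): agaacgttgcgaACGTGcgcccggtgcct
Ankrd37 (chr8:45999840-45999868, minus strand): cagtgtttgggtACGTGaggccgcagcgg
Kdm3a (chr6:71632928-71632956, minus strand): ccgggaggctgtGCGTGtcttgtgagaga
Pdk1 (chr2:71873210-71873238, plus strand): ccgcctacggggGCGTGgttccagcgagg
Bnip3 (chr7:138909598-138909626, minus strand): gcgCACGCgccgCACGTGccaCACGCtcc
The core letters stood in windows of targets with higher, similar and lower counts in the knockouts. The Bnip3 stretch held more of them than the other 5, which depends on the stretch shown. The whole Bnip3 window held 5 matches, with CACGTG counted on both strands, and the Ankrd37 window held 4.

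Libraries held between 11501053 and 21001341 counts, the fewest in knockout 3. Control 2 had 52 counts of Xist and 3980 of Y-linked genes, while the other 5 libraries had 10458 to 23845 of Xist and at most 5 of Y-linked genes, so that sex differed within the controls and not within the knockouts. Counts of Tfrc were 2783, 2856 and 1032 in the controls and 4368, 1713 and 530 in the knockouts. The groups overlapped, and a count over the whole gene in whole kidney does not measure the deleted exons, so that it checks no label. Cdh16, the gene of Ksp-cadherin, was abundant in every library, with 16052 to 30959 counts. Levels below are CPM, counts relative to the TMM-scaled library size, and a gene was called where edgeR's quasi-likelihood fit of all 15171 genes tested gave it an adjusted p under 0.05. On this rule 17.2% of all genes were called, 10.6% higher and 6.64% lower in the knockouts.

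Of the 10 targets, 2 were called, both higher in the knockouts: Edn1 (6.48-fold) and Ddit4 (2.33-fold). That is 20.0% of the targets against 17.2% of all genes. The 3 knockouts lay above the 3 controls for 4 targets (Edn1, Ddit4, Ankrd37 and Kdm3a), where 23.8% of all genes did so, and below them for 1 (Bnip3), where 22.2% did so. The fitted change was above 0 for 5 targets and below 0 for the other 5, with a median log2 fold change of 0.13 against 0.02 over all genes. That median was 0.0058 without knockout 1, 0.077 without control 2 and 0.39 with library size alone. Over all genes the same fits gave 0.020, 0.027 and 0.29. The share called in either direction was close to that of all genes. By direction, 2 of 10 were called higher, where 10.6% of all genes were, and 0 of 10 lower, where 6.64% were.

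**Figure D1:**
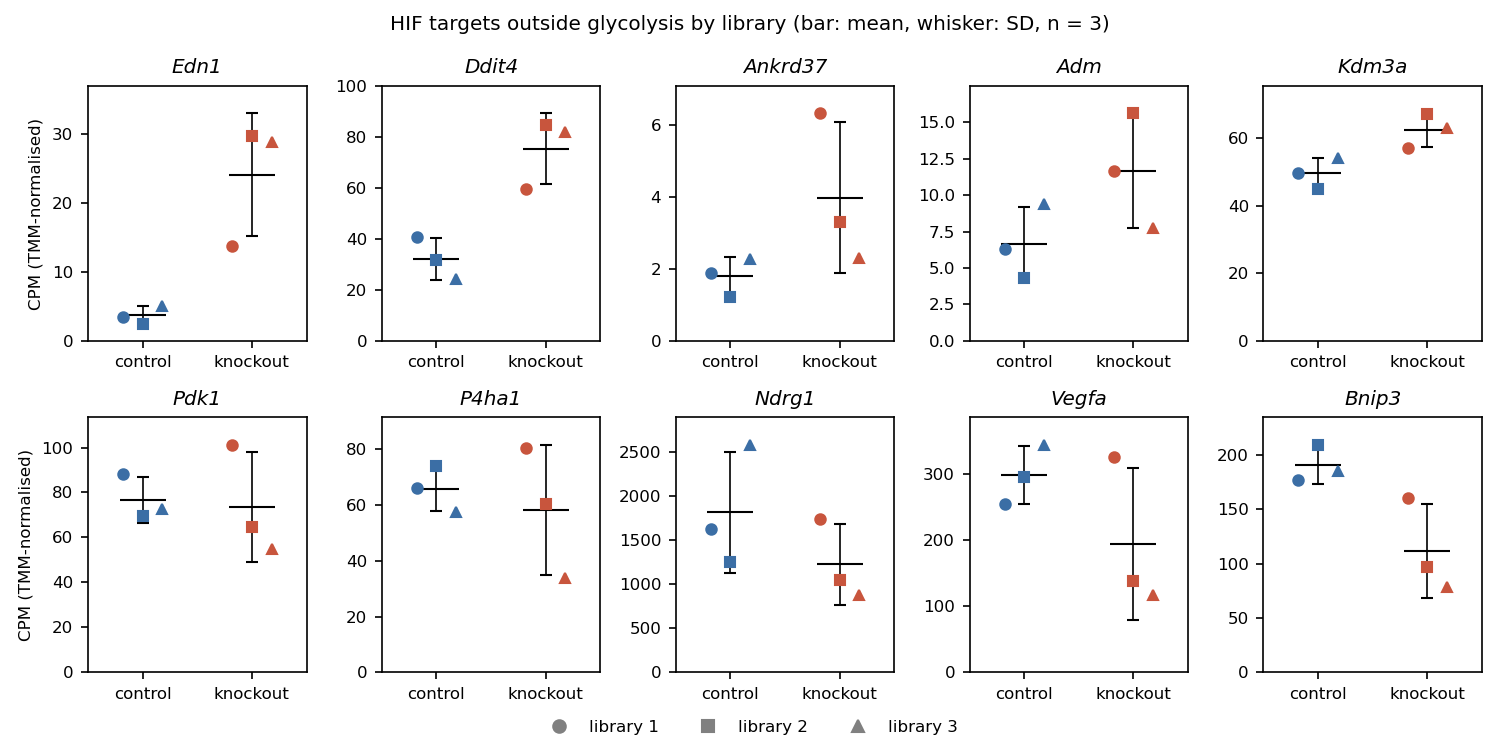
TMM-normalised CPM (vertical axes, from 0) of the 10 targets in 3 control and 3 knockout kidneys, 1 point per library, with the group mean as a bar and the SD as whiskers. Panels run from the highest to the lowest fold change, the knockouts stand clear of the controls in Edn1 and Ddit4, and knockout 1 is the highest knockout in the lower 5 panels, Pdk1 to Bnip3.

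Edn1 encodes the precursor of endothelin-1, a vasoconstrictor peptide that also regulates sodium transport in the collecting duct, and lies at chr13:42396639-42403358 on the plus strand (build mm9, as are all gene positions below). Its level was 3.53, 2.53 and 5.10 CPM in the controls and 13.8, 29.7 and 28.9 CPM in the knockouts, from 43 to 85 counts per control and 282 to 592 per knockout. Every knockout exceeded the highest control, and knockout 1 was the lowest of its group. The control mean was 3.72 ± 1.30 CPM and the knockout mean 24.1 ± 8.93 CPM (SD, n = 3 per group, as for all means below), and the log2 fold change was 2.70 (SE 0.40, adjusted p = 0.0276). Ranked by fold change, Edn1 stood at place 401 of the 15171 genes.

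Among the genes of the endothelin system, Ednra, the receptor that mediates contraction in smooth muscle, rose as well. Its level was 4.93, 3.70 and 2.88 CPM in the controls and 9.13, 29.1 and 25.8 CPM in the knockouts, a log2 fold change of 2.47 (SE 0.47, adjusted p = 0.0303). The second receptor, Ednrb, had a log2 fold change of 0.09 (SE 0.29, adjusted p = 0.849), and its libraries overlapped. The converting enzyme Ece1 (0.30, SE 0.22), the related enzyme Ece2 (−0.34, SE 0.26), which had the largest change of those not called, and the ligand Edn3 (0.16, SE 0.30) were not called. Thus 1 of 5 tested genes around Edn1 was called, a share near that of all genes (17.2%). Edn2, with at most 1 count in a library, was not tested.

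Adm encodes adrenomedullin, a vasodilator peptide, at chr7:117771175-117773331 on the plus strand. It measured 6.27, 4.29 and 9.36 CPM in the controls and 11.6, 15.6 and 7.74 CPM in the knockouts. Knockouts 1 and 2 exceeded all controls and knockout 3 lay among them, so that the groups overlapped. The means were 6.64 ± 2.56 and 11.7 ± 3.93 CPM, with a log2 fold change of 0.81 (SE 0.38, adjusted p = 0.160). 

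Partners of the adrenomedullin receptor rose. Adrenomedullin is bound by the receptor Calcrl joined to an accessory protein, of which Ramp2 and Ramp3 give adrenomedullin receptors and Ramp1 gives the receptor of the related peptide CGRP. Ramp1 rose from 0.353 to 1.02 CPM in the controls to 3.19, 12.5 and 13.8 CPM in the knockouts (log2 fold change 3.97, SE 0.69, adjusted p = 0.0286). Ramp2 rose by a log2 fold change of 0.85 (SE 0.22, adjusted p = 0.0434), from 17.2 to 20.7 CPM in controls to 28.6 to 46.3 CPM in knockouts. Ramp3 rose by 0.89 on the log2 scale (SE 0.21, adjusted p = 0.0380). Calcrl had 46.5, 44.4 and 24.7 CPM in the controls and 53.1, 98.3 and 132 CPM in the knockouts, with no overlap, and missed the threshold (1.29, SE 0.38, adjusted p = 0.0569). The related ligand Adm2 was not called (−0.10, SE 0.57), so that 3 of the 5 genes were called, all higher, where 10.6% of all genes were.

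Vegfa, the growth factor of blood vessels that podocytes and tubule cells make, lies at chr17:46153942-46169326 on the minus strand. Its level was 255, 296 and 344 CPM in the controls and 326, 138 and 118 CPM in the knockouts. Knockouts 2 and 3 were below every control, while knockout 1 was above controls 1 and 2. The means of 298.6 ± 44.5 and 193.7 ± 114.9 CPM differed by less than the spread among the knockouts (log2 fold change −0.62, SE 0.40, adjusted p = 0.282). Without knockout 1 the fit of 5 libraries called Vegfa lower (−1.24, adjusted p = 0.00575), in a fit that called 34.4% of all genes. Without knockout 2 the value was −0.43 (adjusted p = 0.529) and without knockout 3 it was −0.37 (adjusted p = 0.564).

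Of the VEGF receptors, co-receptors and related ligands, 1 of 8 was called, higher, where 10.6% of all genes were. Vegfc, the growth factor of lymphatic vessels, was 3.78 to 4.0 CPM in the controls and 7.12 to 12 CPM in the knockouts (1.19, SE 0.28, adjusted p = 0.0380). The receptors of VEGF-A were not called, with log2 fold changes of 0.05 for Flt1 (SE 0.40) and −0.26 for Kdr (SE 0.39). The co-receptor Nrp1, with 120 to 180 CPM in the controls and 213 to 244 CPM in the knockouts, did not pass (0.58, SE 0.19, adjusted p = 0.0718) and had the largest change of those not called. Endothelial markers beside these values summed to 809 to 1389 CPM in the controls and 1274 to 1623 CPM in the knockouts, and 1 of 10 was called (Egfl7, higher). Podocyte markers summed to 547 to 686 CPM in the controls and 672 to 977 CPM in the knockouts, and 1 of 6 was called (Synpo, higher). Beside both marker lists, 10.6% of all genes were called higher. The part of either cell type in the values of Vegfa, Adm and Edn1 was not tested.

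**Figure D2:**
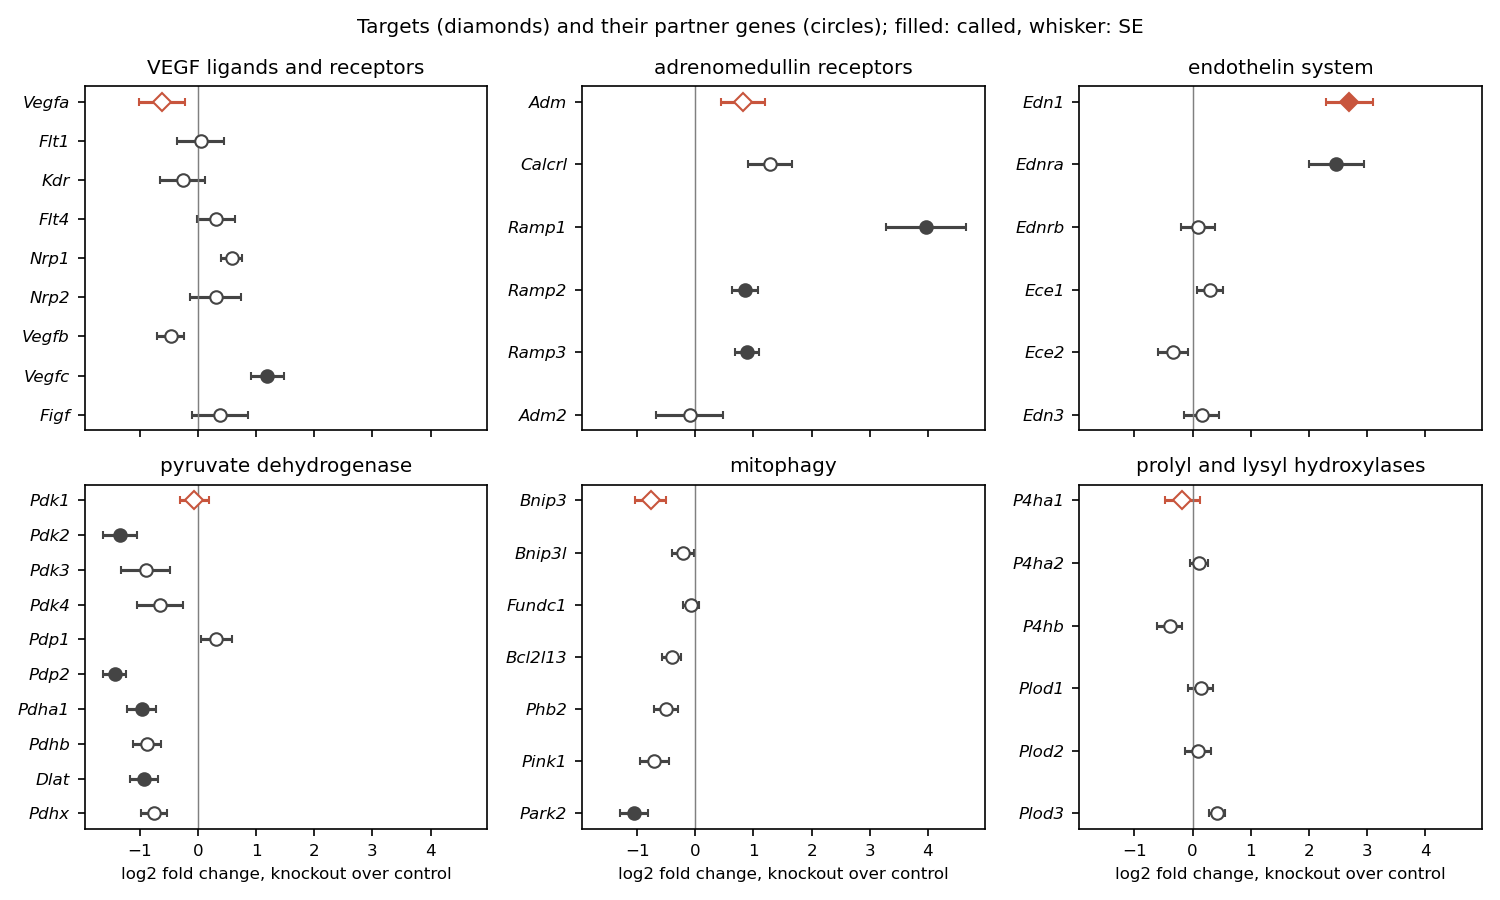
Log2 fold changes, knockout over control, with SE as whiskers (horizontal axes, shared) for 6 targets (diamonds) and their receptors, relatives or partners (circles), filled where called. The called endothelin and adrenomedullin receptor genes lie to the right of 0, and the called pyruvate dehydrogenase and mitophagy genes lie to the left.

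Ddit4 (REDD1), an inhibitor of the growth kinase complex mTORC1 that responds to hypoxia, glucocorticoids and DNA damage, lies at chr10:59412423-59414518 on the minus strand. It measured 40.9, 31.7 and 24.3 CPM in the controls and 59.4, 84.8 and 82.0 CPM in the knockouts. All knockouts were above all controls, again with knockout 1 nearest to them. The mean rose from 32.3 ± 8.28 to 75.4 ± 13.9 CPM (log2 fold change 1.22, SE 0.23, adjusted p = 0.0303). Its paralogue Ddit4l rose from 26.1, 19.9 and 19.8 CPM to 50.8, 45.3 and 63.3 CPM (1.27, SE 0.19, adjusted p = 0.0271). The stress-induced sestrins, which also restrain mTORC1, were not called (Sesn1 0.04, Sesn2 0.05 and Sesn3 −0.02), nor were Tsc1 (−0.26, the largest of those not called) and Tsc2 (−0.09), the complex through which Ddit4 acts.

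The calls of Edn1 and Ddit4 rested on having all 6 libraries, or on leaving out knockout 1. Without control 1, 2 or 3, none of the 10 targets was called, and neither was any gene (0%), with the log2 fold change of Edn1 at 2.64, 2.47 and 2.98 and that of Ddit4 at 1.41, 1.20 and 1.05. Without control 2, the library with Y-linked counts, both had an adjusted p of 0.118, and 4270 genes had an unadjusted p under 0.05. Without knockout 2 the values were 2.52 and 1.13 (adjusted p = 0.0596 and 0.0789), and without knockout 3 they were 2.55 and 1.16 (adjusted p = 0.0565 and 0.0683), in fits that called 0.474% and 0.013% of all genes. With the ratio of Xist to Y-linked counts as a covariate they were 2.51 and 1.21 (adjusted p = 0.110 and 0.111). Again no gene was called (0%), and 4238 genes had an unadjusted p under 0.05. Since control 2 alone held many Y-linked counts, this fit was close to the fit without control 2. Both stayed higher in the knockouts in each of these fits, and both were called by limma-voom, which called 13.4% of all genes.

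**Figure D3:**
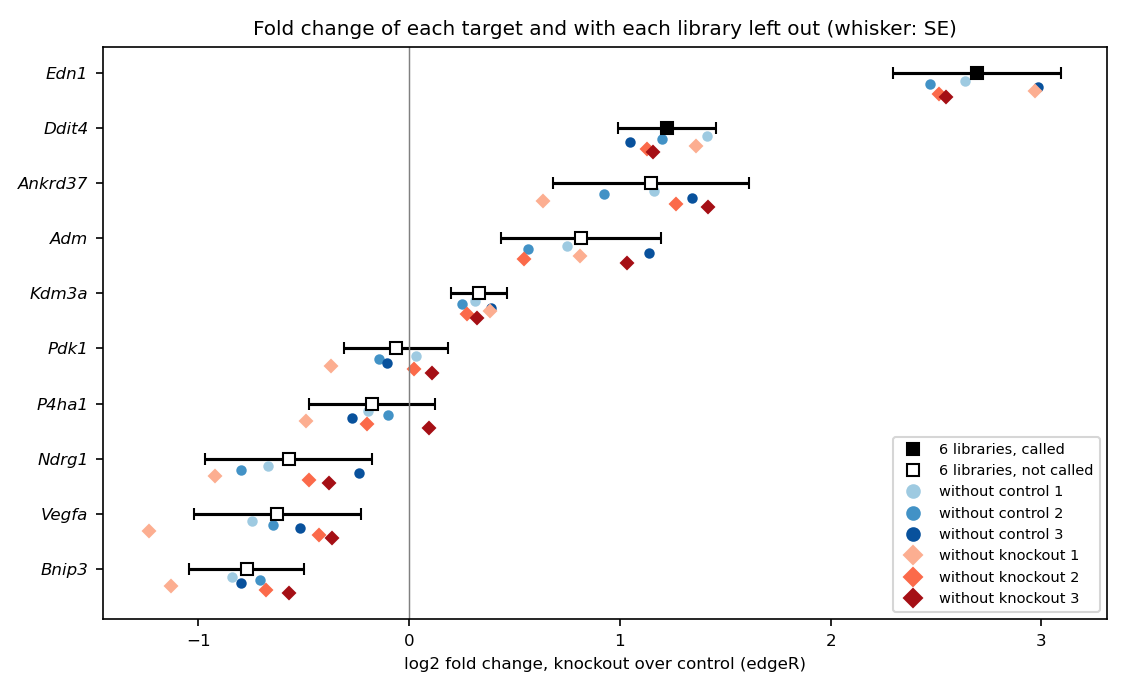
Log2 fold change of each target (horizontal axis), with all 6 libraries as squares with SE (filled where called) and with each library left out as coloured points. Edn1, Ddit4, Ankrd37, Adm and Kdm3a stay above 0 in every fit shown, Ndrg1, Vegfa and Bnip3 stay below it, and Pdk1 and P4ha1 cross it.

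Kdm3a, a histone H3K9 demethylase that needs iron, lies at chr6:71538968-71582899 on the minus strand. It was 49.8, 44.9 and 54.0 CPM in the controls and 57.0, 67.0 and 63.0 CPM in the knockouts. The groups did not overlap but lay close, with means of 49.6 ± 4.57 and 62.4 ± 5.04 CPM and a log2 fold change of 0.33 (SE 0.13, adjusted p = 0.116). Scaled by library size alone it was called (0.60, adjusted p = 0.0398), but this scaling moved the median of all genes from 0.02 to 0.29 and called 24.0% of them, 2985 higher and 662 lower in place of 1604 and 1008. Among 9 related demethylases, 1 was called, where 17.2% of all genes were: Kdm4b, itself a HIF target (0.56, SE 0.15, adjusted p = 0.0453). The closest relative, Kdm3b, was not (0.18, SE 0.12), and Kdm5b had the largest change of those not called (0.41, SE 0.14).

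Ankrd37, an ankyrin repeat protein of which little is known, lies at chr8:47082256-47085221 on the minus strand and had the lowest level of the 10, with 38, 21 and 38 counts in the controls and 129, 66 and 30 in the knockouts. In CPM this was 1.89, 1.23 and 2.28 against 6.33, 3.31 and 2.30. The knockouts were above the controls by a hair, since knockout 3 and control 3 were nearly equal, and knockout 1 was far above the rest. The log2 fold change was 1.15 (SE 0.46, adjusted p = 0.118), and 0.63 without knockout 1. The gene shares 349 exonic bases, 24.9% of its exon length, with Lrp2bp on the opposite strand and 57 with Ufsp2, and the strand setting of the counting is not given in the sources used here, so that its counts are uncertain. Lrp2bp had 6 to 20 counts in a library and Ufsp2 had 389 to 758, more than the 21 to 129 of Ankrd37, and how many fell in the shared bases was not tested.

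Bnip3, a protein of the outer mitochondrial membrane that marks mitochondria for autophagy, lies at chr7:146082519-146101202 on the minus strand. It measured 176, 209 and 186 CPM in the controls and 160, 96.9 and 78.2 CPM in the knockouts. It was the only 1 of the 10 targets for which every knockout was below every control, with knockout 1 just below control 1. The means were 190.4 ± 16.9 and 111.7 ± 42.9 CPM, a log2 fold change of −0.77 (SE 0.27) that did not pass (adjusted p = 0.0871). It was called lower by DESeq2 (−0.79, adjusted p = 0.0313), which called 32.3% of all genes, and by edgeR without knockout 1 (−1.13, adjusted p = 0.00529). It was not called without knockout 2 (−0.68, adjusted p = 0.214), knockout 3 (−0.57, adjusted p = 0.201) or control 2 (−0.71, adjusted p = 0.208).

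Of 6 other genes of mitophagy, 1 was called, lower, where 6.64% of all genes were. All 6 had a log2 fold change below 0, with a median of −0.45 against 0.02 over all genes. The knockouts lay below the controls for 4 of them, where 22.2% of all genes did so. Park2, the ubiquitin ligase parkin, fell from 13.4, 10.1 and 14.0 CPM to 7.17, 5.37 and 5.44 CPM (−1.06, SE 0.24, adjusted p = 0.0359). Pink1, the kinase that recruits parkin, was −0.70 (SE 0.25, adjusted p = 0.0850), the largest of those not called. The closest relative of Bnip3, Bnip3l (NIX), was −0.21 (SE 0.19, adjusted p = 0.433).

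Pdk1 encodes a kinase that shuts off pyruvate dehydrogenase, the enzyme that feeds pyruvate into the citric acid cycle, and lies at chr2:71711281-71741915 on the plus strand. It was 88.4, 69.4 and 72.6 CPM in the controls and 101, 64.6 and 54.9 CPM in the knockouts. The knockouts held both the highest and the lowest value, and the log2 fold change was −0.06 (SE 0.24, adjusted p = 0.872).

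Several of its relatives fell. Of 9 kinases, phosphatases and subunits of pyruvate dehydrogenase, 4 were called, all lower (6.64% of all genes were), and 8 had a log2 fold change below 0, as 7361 of all 15171 genes did. Over the partners of all targets together, 12 of 65 were called (18.5%, against 17.2% of all genes), 7 higher and 5 lower. Pdk2, a second kinase of the family, fell from 330, 315 and 379 CPM to 193, 89.9 and 123 CPM (−1.34, SE 0.29, adjusted p = 0.0332). The phosphatase Pdp2, which reverses the kinases, fell by 1.43 on the log2 scale (SE 0.20, adjusted p = 0.0271). The subunits Pdha1 (−0.97, adjusted p = 0.0445) and Dlat (−0.93, adjusted p = 0.0431) fell, and Pdhb (−0.87, adjusted p = 0.0508) did not pass. Pdk3 (−0.90, SE 0.42), the largest of those not called, and Pdk4 (−0.65, SE 0.40) were not called.

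P4ha1, a subunit of the collagen prolyl 4-hydroxylase, lies at chr10:58786044-58836052 on the plus strand. It was 66.3, 73.9 and 57.6 CPM in the controls and 80.5, 60.3 and 34.0 CPM in the knockouts, with the extremes again in the knockouts (log2 fold change −0.18, SE 0.30, adjusted p = 0.691). None of 5 other collagen prolyl and lysyl hydroxylases was called by edgeR. P4ha2 was 0.11 (SE 0.16), and Plod3 had the largest value (0.42, SE 0.14, adjusted p = 0.0795). The fibrillar collagen mRNAs Col1a1, Col1a2 and Col3a1 rose in the same libraries, and Col1a1 was 24.6 to 65.3 CPM in the controls and 171, 624 and 622 CPM in the knockouts (3.52, SE 0.61, adjusted p = 0.0286).

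Ndrg1, a stress-responsive protein of epithelial differentiation, lies at chr15:66760883-66801202 on the minus strand and was the most abundant of the 10, with 11510 to 43025 counts. Its level was 1623, 1252 and 2583 CPM in the controls and 1742, 1052 and 882 CPM in the knockouts. The groups overlapped widely, with the highest value in control 3 (log2 fold change −0.57, SE 0.40, adjusted p = 0.322). The value was −0.92 without knockout 1 (adjusted p = 0.0832) and −0.24 without control 3 (adjusted p = 0.698). Of its exonic bases, 419 are shared with Gm17035 and 137 with Gm2895, both on the opposite strand. Ndrg2 (−0.53, SE 0.19, adjusted p = 0.0866), Ndrg3 (−0.45, SE 0.19) and Ndrg4 (−0.78, SE 0.45), the largest of these, were not called.

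Per kilobase of exon, the control levels ran from Ndrg1 (276 ± 104 CPM per kb) through Bnip3 (84.1 ± 7.48), Vegfa (69.5 ± 10.4), Ddit4 (19.2 ± 4.92), P4ha1 (16.0 ± 1.98), Kdm3a (9.99 ± 0.92), Pdk1 (9.87 ± 1.31) and Adm (4.79 ± 1.84) to Edn1 (1.59 ± 0.55) and Ankrd37 (1.28 ± 0.38). Bnip3 and Vegfa, Ddit4 and P4ha1, Kdm3a and Pdk1, and Edn1 and Ankrd37 were neighbours whose SDs overlapped. In the knockouts Edn1 reached 10.3 ± 3.81 CPM per kb, above Adm (8.41 ± 2.84) and Pdk1 (9.46 ± 3.14), though within the spread of both. Ddit4 reached 44.8 ± 8.25 CPM per kb, near Bnip3 (49.3 ± 18.9) and Vegfa (45.1 ± 26.8).

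As a value within a library, which needs no scaling between libraries, Edn1 had 0.0200, 0.0121 and 0.0275 counts per count of Bnip3 in the controls and 0.0865, 0.307 and 0.369 in the knockouts. On the log2 scale these ratios were −5.64, −6.37 and −5.18 against −3.53, −1.70 and −1.44. The pair was chosen for its values, as the ends of the list, so that the gap between the groups was fixed by the choice, and a ratio does not show which of the 2 genes moved. The order of the libraries differed between targets: knockout 1 was the highest of the 6 libraries for 3 targets (Ankrd37, Pdk1 and P4ha1), knockout 2 for 4 (Adm, Edn1, Ddit4 and Kdm3a), and knockout 3, the shallowest, was the lowest for 5 (Vegfa, Ndrg1, Bnip3, Pdk1 and P4ha1). Control 2, the library with Y-linked counts, was the lowest for 4 (Adm, Edn1, Ankrd37 and Kdm3a).

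Markers of some cell types of the kidney differed between the groups in the same libraries, while other marker lists were called no more often than all genes (17.2%). Of all genes, 10.6% were called higher and 6.64% lower in the knockouts. Proximal tubule markers summed to 21784 to 31004 CPM in the controls and to 11621, 4765 and 3687 CPM in knockouts 1 to 3, and 11 of 16 were called, all lower. Thick ascending limb markers summed to 5545 to 12110 CPM and 984 to 7195 CPM (0 of 8 called by edgeR). Of distal convoluted tubule, principal cell and intercalated cell markers, 1 of 6, 1 of 8 and 0 of 6 were called, the called ones lower. Fibroblast and pericyte markers summed to 369 to 697 CPM and 1064 to 4141 CPM (4 of 9 called higher). Macrophage and leukocyte markers summed to 324 to 366 CPM and 1263 to 3104 CPM (8 of 10 tested called higher). Tubular injury markers were higher in every knockout than in every control for 8 of 8 genes, where 23.8% of all genes were. Of the 8, 6 were called higher. Urothelial markers summed to 826 CPM in knockout 2, against 14.2 to 69.1 CPM in the other 5 libraries, and 1 of 6 was called higher (Krt20, which is also in the injury list). Globin genes were listed at 0 in every library, and the erythroid gene Alas2 was at 7.41 to 16.2 CPM. Knockout 1 lay nearest to the controls in the sums of the proximal tubule, stromal and leukocyte markers, and knockout 3 in that of the injury markers. The part of these shifts in the direction of any target was not tested.

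A wider list of 35 HIF targets outside glycolysis held calls in both directions. Of 34 tested, 9 were called (26.5%, against 17.2% of all genes), 6 higher and 3 lower (all genes 10.6% and 6.64%), with a median log2 fold change of 0.12. The median was 0.025 without control 3, 0.047 without control 1 and 0.39 with library size alone, against 0.028, 0.020 and 0.29 over all genes. Without knockout 1 the calls were 8 higher and 8 lower (47.1%), in a fit that called 34.4% of all genes, 2788 higher and 2544 lower. The highest were Lox (3.32, SE 0.65), which crosslinks collagen, and the cell cycle inhibitor Cdkn1a (p21; 3.12, SE 0.38). Lox was 10.7, 9.99 and 6.48 CPM in the controls and 26.1, 168 and 77.5 CPM in the knockouts. Cdkn1a was 19.2, 8.17 and 11.8 CPM against 155, 87.3 and 99.6 CPM, with its highest value in knockout 1.

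Loxl2 (1.93), a second collagen crosslinker, the chemokine receptor Cxcr4 (1.81), the secreted hormone Stc2 (1.74) and Kdm4b (0.56) were also called higher. The 3 called lower were the carbonic anhydrase Car9 (−1.79, SE 0.28, adjusted p = 0.0277), the corepressor subunit Sap30 (−1.57, SE 0.42, adjusted p = 0.0471) and the MYC antagonist Mxi1 (−0.56, SE 0.14, adjusted p = 0.0414). Car9, a classical HIF target, was 12 to 20.7 CPM in the controls and 4.17 to 4.81 CPM in the knockouts, the opposite direction to Edn1 with no overlap. Pgf had the largest value of those not called (2.51, SE 0.72, adjusted p = 0.0536), and the largest below 0 was the mitochondrial adenylate kinase Ak4 (−2.01, SE 0.70, adjusted p = 0.0848).

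**Figure D4:**
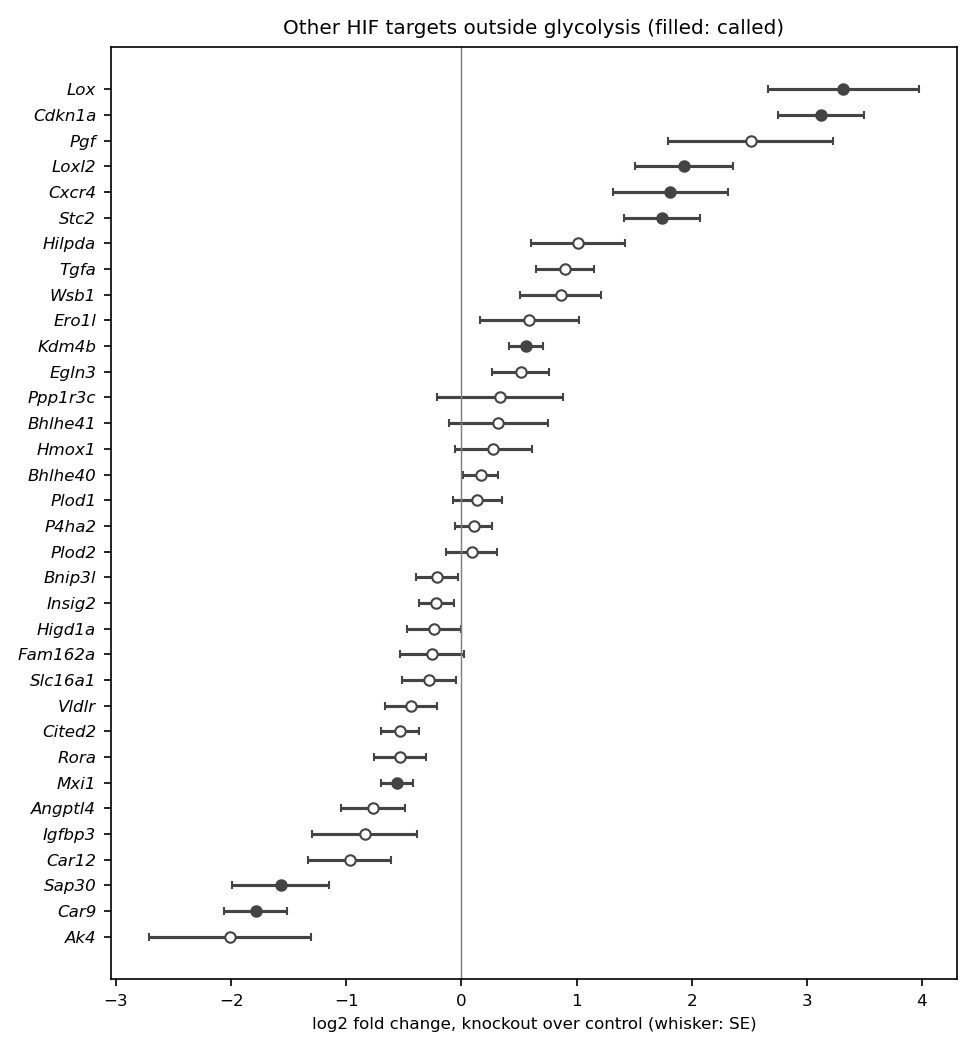
Log2 fold changes, knockout over control (horizontal axis, SE as whiskers), of the 34 tested genes of the wider HIF target list, filled where called. The called genes run from 3.32 (Lox) to −1.79 (Car9), with 6 to the right of 0 and 3 to the left.

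Glycolytic HIF targets and the HIF machinery are given for their values beside these. Of 18 glycolytic targets tested, Eno2 (2.26, SE 0.35, adjusted p = 0.0277) and Pfkfb4 (0.77, SE 0.21, adjusted p = 0.0490) were called higher (11.1%, against 10.6% of all genes). None was called lower, where 6.64% of all genes were, and the median was −0.05. Slc16a3 had the largest value of those not called (1.81, adjusted p = 0.0508). Without knockout 1 the glycolytic calls were 2 higher and 5 lower (38.9%, against 34.4% of all genes, 2788 higher and 2544 lower). The median there was −0.47, against 0.020 over all genes. None of the 9 mRNAs of HIF subunits and their regulators was called by edgeR (Hif1a −0.11, Epas1 0.45, Egln1 −0.50, Vhl 0.29 and, largest, Hif3a 0.59), which says nothing of HIF protein.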

How the data were processed

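Poly-A libraries of whole kidney were sequenced on an Illumina instrument. Per the labels and the study's methods, the authors used CASAVA 1.8.2, Trimmomatic, TopHat2 2.0.11 (mm9, unique reads) and HTSeq. The gene annotation and strand setting are not given in the sources used here. Deposited were whole-number read counts, in a table each for controls and knockouts, and 0 columns were left unmapped. Total counts ran from 11501053 to 21001341 per library.

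Counts were analysed with edgeR 4.0.16 in R 4.3.3: filterByExpr (minimum count 10), TMM scaling, quasi-likelihood test of knockout against control over 15171 genes, and Benjamini-Hochberg adjustment at 0.05. CPM use TMM library sizes. Groups were taken from sample titles, with 3 replicates each that the series text calls biological. Alternatives were DESeq2 1.42.0, limma 3.58.1 (voom), other scalings and filters, a replicate block, a covariate from Xist and Y-linked counts, and leaving out each library. The test was tested on simulated data.

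Gene positions and exon lengths came from GENCODE M1 on mm9. The members, gene lists and marker lists were chosen with earlier results of these data known. 2 list genes are not reported here, and their lists were counted without them. Named genes were all members, every called gene of the HIF target and partner lists, the largest change not called in each, direct receptors or closest relatives, and markers set beside a member. Pdhb, Ece1, Edn3, Adm2, Tsc2, the named HIF subunits and regulators, Col1a1, Col1a2, Col3a1, Tfrc and Cdh16 were added after their values were seen.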

Additional observations from a re-analysis of the deposited data

How the results depend on the processing

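The count of called genes (2612 of all, 2 of the 10 targets, 9 of the other HIF targets, 2 glycolytic targets and 12 of the targets' partners) depended most on single libraries. Leaving out each library in turn gave 0 to 5332 genes (0% to 34.4%), 0 to 4 targets, 0 to 16 other targets, 0 to 7 glycolytic targets and 0 to 22 partners, the highest each time without knockout 1. In the replicate block and in the covariate fit these counts were 0, 0, 0, 0 and 0, with 5432 and 4238 genes at an unadjusted p under 0.05. The deviations of same-numbered libraries correlated by −0.13, 0.01 and 0.21. With no comparison to libraries of different numbers, this cannot show whether the numbers pair the kidneys. DESeq2 called 4882 genes (32.3%), 14 other targets, 4 glycolytic targets and 19 partners, and an adjusted p under 0.10 gave 5034 genes (33.2%), 15 other targets, 4 glycolytic targets and 21 partners. limma-voom, which called 13.4% of all genes, called 5 other targets and 1 glycolytic target, and 1 glycolytic target was called with DESeq2 size factors (17.8% of all genes) and with no filter (12.7%). Pdk1 and P4ha1 changed sign: Pdk1 was 0.19 with library size alone and 0.0061 with upper quartile scaling, and ran from −0.37 to 0.11 with a library left out, while P4ha1 was 0.083 with library size alone and ran from −0.49 to 0.095. The cause was not tested. The other 8 targets kept their direction in every alternative. Depth limits Ankrd37 and Edn1 most, with 21 and 43 counts in control 2.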

Other observations

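Some HIF-related genes were too low to test. Epo, the hormone by which interstitial cells of the kidney respond to hypoxia, had 1, 0 and 0 counts in the controls and 3, 5 and 0 in the knockouts. P4ha3 had at most 2 counts in a control and 1, 20 and 11 counts in the knockouts.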
